A study of Danio rerio with 16 samples.

Results

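G protein-coupled receptors (GPCRs) carry signals from lipids, peptides, purines and matrix proteins across the cell membrane, and several of them act in blood vessels and in blood cells. Sphingosine-1-phosphate (S1P), a lipid carried in blood, acts on endothelial S1P receptors that restrain sprouting and hold the vessel wall together. Apelin, endothelin and adrenomedullin are vascular peptides with receptors of their own, and regulators of G protein signalling (RGS proteins) end the signal by speeding GTP hydrolysis on the G protein. Open chromatin near these genes was compared between haemogenic endothelium (HE), the cells in the floor of the dorsal aorta that give rise to blood stem cells, and aortic roof endothelium (ARE).

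The peaks described are all differential ATAC-seq peaks whose nearest gene has a symbol starting with gpr, adgr, s1pr, lpar, p2r, apln, edn, calcr, ramp, rgs or adora. They number 80 of the 9466 peaks in the 2 deposited lists and lie near 43 genes on 19 chromosomes. The letters of the symbol also take in genes that are not receptors, namely the RGS genes, the receptor partner ramp2, the ligand genes apln and edn1, the ion channel gene p2rx1 and gpr137ba, whose product sits in the lysosomal membrane in mammals. No differential peak had a calcr gene or a p2ry gene as its nearest gene.

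ATAC-seq reads out open chromatin by the insertion of adapters with the Tn5 transposase. The tested cells, DP-R1hi, were mCherry+ Citrine-high cells sorted as HE, and they were set against DP-R1lo, mCherry+ Citrine-low cells sorted as ARE, both from zebrafish embryos at 28 to 30 hpf that carried the transgenes TgBAC(runx1P2:Citrine) and Tg(kdrl:mCherry). The study counts the sprouting inter-somitic vessels, where weak Citrine was also seen, as part of ARE. No mutation or treatment was applied to either group, and each library was made from 2000 to 3000 cells sorted from dissociated whole embryos. Citrine is driven by runx1 regulatory elements on a BAC and is a stable protein, and the gate DP-R1med lies between the 2 used here, so that the groups were split by Citrine brightness. The series holds 16 libraries, 3 for each of 5 sorted populations and 1 of genomic DNA. The authors left out 1 replicate of DP-R1hi and 1 of DP-R1lo as outliers before the comparison, so that 2 of each remained.

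The values given are the authors' group means of normalized reads per peak on a log2 scale, and the difference is the DP-R1hi mean minus the DP-R1lo mean, so that 1 unit is a 2-fold difference. The lists give no value per replicate, no error and no library depth. No difference below could therefore be held against the spread between replicates, and none was tested here. The lowest value listed was -0.14 for DP-R1hi and -0.27 for DP-R1lo. The size of a difference from such a value is uncertain in both directions, since how the lowest value was set cannot be read from the lists. Below, open in both populations means only that each mean was well above its lowest value. No cutoff was set for this, and it is not said of every such peak. In sorted cells, fewer cells with an open site and a site less open in every cell cannot be told apart. Every listed peak had already passed the authors' test and fold change filter, so that the counts below are shares of differential peaks and say nothing of sites that did not differ.

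The labels were checked against markers of HE, arterial and other cells in the same lists. All 6 peaks near HE markers (myb, gfi1aa and gfi1ab of a list of 6 genes) were more open in DP-R1hi, whereas runx1, gata2b and dnmt3bb.1 had no peak. All 10 peaks near endothelial genes (4 of 5 genes, kdrl and cdh5 among them) were more open in DP-R1lo. Both groups were sorted for mCherry under kdrl control, yet the kdrl promoter had the lowest value of -0.14 in DP-R1hi, against 6.26 in DP-R1lo. The kdrl peak 4622 bp upstream was open in both, at 6.63 in DP-R1hi and 8.46 in DP-R1lo. The arterial list had 4 peaks more open in DP-R1hi and 14 more open in DP-R1lo. Many of these lay far from a TSS, and within 50 kb the counts were 3 and 6. Over all listed peaks within 50 kb, 41.9% were more open in DP-R1hi. The gene tbx20, which the study uses as a marker of the aortic roof, had no peak. By gene, 3 had peaks more open in DP-R1lo alone (dlc, dll4 and vegfc), 1 in DP-R1hi alone (notch1b) and 2 both (efnb2a and hey2). Of the 17 peaks near leukocyte markers, 12 were more open in DP-R1hi, several of them near cebpa, and 5 in DP-R1lo. Of 6 near erythroid and platelet genes, 4 were more open in DP-R1hi and 2 in DP-R1lo. For comparison, 40.8% of all listed peaks were more open in DP-R1hi. Muscle, neural and pronephros markers had 1, 3 and 0 peaks. The muscle peak and 2 of the neural peaks were more open in DP-R1lo, and 1 neural peak in DP-R1hi.

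Among the 80 peaks near GPCR and RGS genes, 34 were more open in DP-R1hi (42.5%) and 46 in DP-R1lo. Over all listed peaks 40.8% were more open in DP-R1hi and 59.2% in DP-R1lo, so that the group as a whole divided much as the lists do. By family, peaks more open in DP-R1hi were 2 of 11 for S1P receptors, 1 of 6 for apelin receptors, 0 of 3 for endothelin receptors, 0 of 2 for ramp2 and 0 of 1 for edn1. They were 2 of 5 for lysophosphatidic acid receptors and 3 of 7 for adenosine receptors, close to the share of the lists. They were 11 of 22 for the numbered gpr genes, 10 of 17 for RGS genes, 2 of 3 for adhesion GPCRs, 2 of 2 for apln and 1 of 1 for p2rx1. With the non-receptors left out, 20 of 56 peaks (35.7%) were more open in DP-R1hi. These are counts of a few peaks for each family, several of which share a gene, and no test was made on them.

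**Figure D1:**
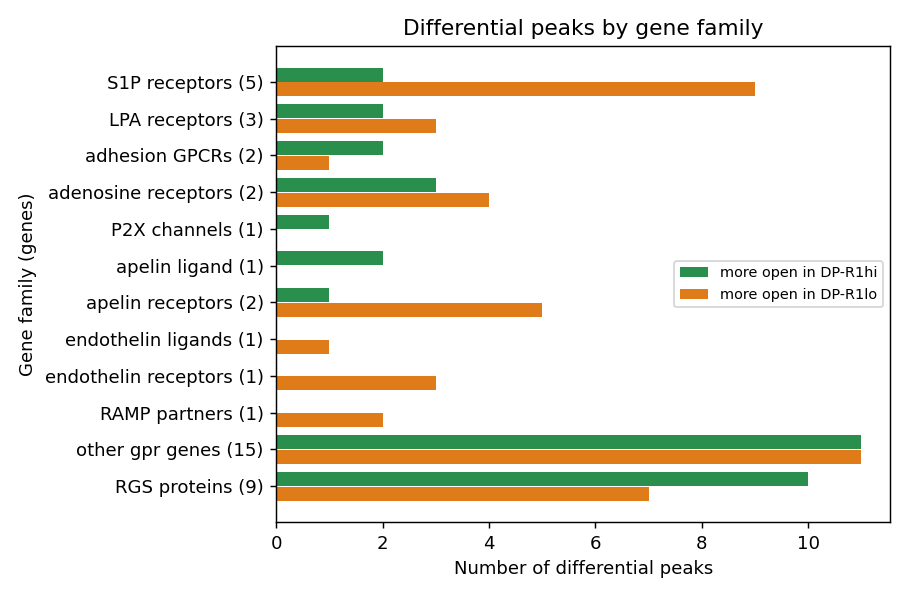
Number of differential peaks (horizontal axis) more open in DP-R1hi (green) and in DP-R1lo (orange) for each gene family, with the number of genes in brackets. S1P receptor genes had 2 and 9 peaks, apelin receptor genes 1 and 5, and RGS genes 10 and 7.

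The size of the differences was close to that of the lists. The median difference was 3.11 for the 34 peaks more open in DP-R1hi, against 2.70 for all 3864 such peaks, with a range from 0.90 to 6.68. It was -4.31 for the 46 peaks more open in DP-R1lo, against -3.90 for all 5602, with a range from -7.90 to -0.84. The lowest DP-R1lo value stood in 9 of the 34 peaks (26.5%, against 18.8% of the list), and the lowest DP-R1hi value in 18 of the 46 (39.1%, against 36.6%). Without the peaks at a lowest value the share more open in DP-R1hi was 47.2% of 53 peaks here and 46.9% of 6692 peaks over both lists.

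**Figure D2:**
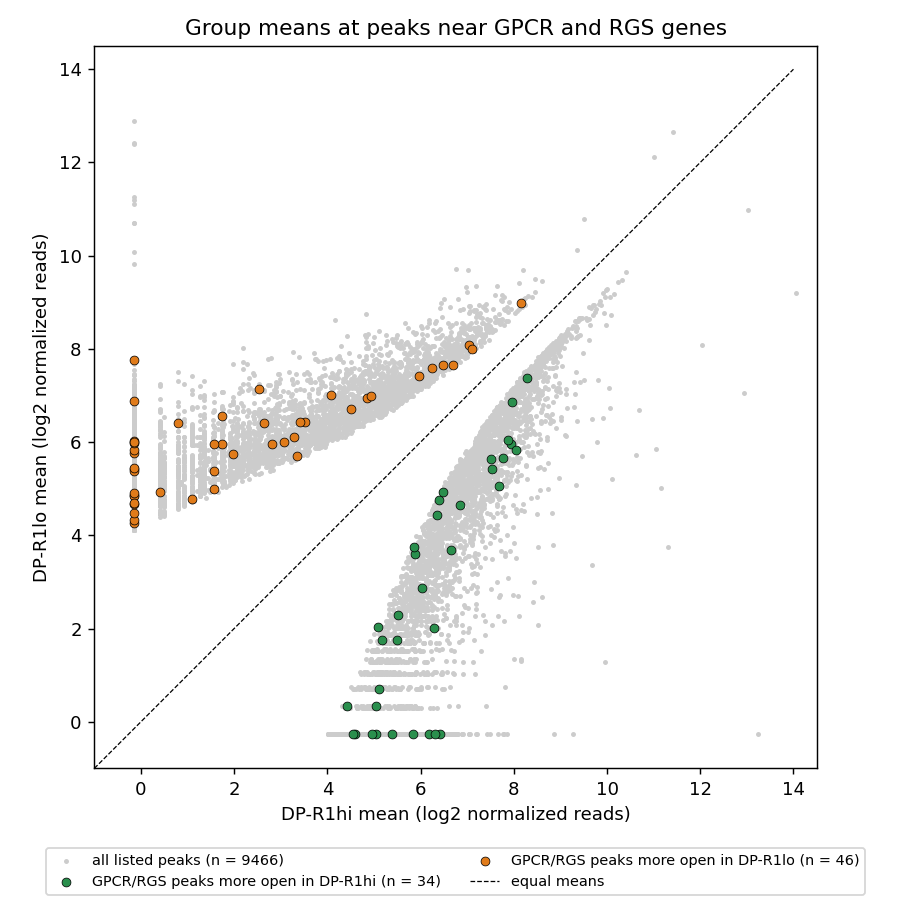
Authors' mean log2 normalized reads in DP-R1hi (horizontal) and DP-R1lo (vertical) for all 9466 listed peaks (grey) and for the peaks near GPCR and RGS genes (34 green, more open in DP-R1hi; 46 orange, more open in DP-R1lo). The column of points at -0.14 and the row at -0.27 are the lowest values listed, and the empty band along the dashed line of equal means holds sites the lists leave out.

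Median distances to start sites were shorter than in the lists as a whole, a difference that was not tested. The median distance to the nearest transcription start site (TSS) was 14983 bp for the peaks more open in DP-R1hi, against 28839 bp in their list. It was 11042 bp for those more open in DP-R1lo, against 32943 bp. Within 50 kb of a TSS lay 30 of 34 (88.2%, against 65.6%) and 38 of 46 (82.6%, against 62.7%). Intergenic peaks made up 21 of 34 and 31 of 46 (61.8% and 67.4%, against 62.4% and 63.0% of the lists). Intronic peaks were 5 and 8 (14.7% and 17.4%, against 24.3% and 25.2%). Exonic peaks were 4 and 1 (11.8% and 2.17%, against 4.32% and 5.37%). Promoter peaks at a TSS were 3 and 4 (8.82% and 8.70%, against 6.29% and 4.69%). None of these shares was tested. Peak widths were like those of the lists, with medians of 468 bp and 493.5 bp, against 473 bp and 488.5 bp. Peaks were assigned by the nearest TSS alone, and 6 of the 80 lay inside the transcript of another gene.

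Of the S1P receptor genes, s1pr1, s1pr2 and s1pr5a had peaks more open in DP-R1lo and no other. For s1pr1, the endothelial receptor that restrains sprouting, both upstream peaks were at the lowest value in DP-R1hi. The nearer one, 5141 bp upstream (GRCz10 chromosome 22, 16020828 to 16021400), had means of -0.14 in DP-R1hi and 5.98 in DP-R1lo, a difference of -6.12. The farther one, 20335 bp upstream, had -0.14 and 4.27. The gene s1pr2, required in zebrafish for migration of heart precursors to the midline, had the largest S1P receptor differences in this direction. Its peaks 56919 bp and 48806 bp upstream (chromosome 3, 54471159 to 54471845 and 54462792 to 54463987) were at -0.14 in DP-R1hi, against 6.88 and 6.03 in DP-R1lo. The s1pr2 peak 6841 bp upstream was open in both populations, at 4.86 in DP-R1hi and 6.95 in DP-R1lo.

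The paralogues s1pr5a and s1pr5b lay on opposite sides. Around s1pr5a, peaks at 7371 bp and 2262 bp upstream and in the 3' UTR had DP-R1hi means of 4.50, 3.07 and -0.14, against 6.72, 6.01 and 4.33 in DP-R1lo. The single s1pr5b peak, 3802 bp upstream (chromosome 6, 127131 to 127715), had 6.41 in DP-R1hi and the lowest value of -0.27 in DP-R1lo. Its difference of 6.68 was the largest of the 80 peaks in favour of DP-R1hi. For s1pr4, a receptor of blood cells in mammals, the 2 peaks differed in direction. The peak 8062 bp upstream was open in both, at 6.70 in DP-R1hi and 7.65 in DP-R1lo, and the one 49911 bp upstream had 5.51 in DP-R1hi and 2.29 in DP-R1lo.

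Receptors for lysophosphatidic acid, a second blood-borne lipid, had 5 peaks. In lpar2b, introns 2 and 3 of 6 held peaks with -0.14 and 1.56 in DP-R1hi, against 5.77 and 5.38 in DP-R1lo. The remaining lpar2b peak, 51782 bp downstream of the TSS, had 5.18 in DP-R1hi and 1.76 in DP-R1lo. The peaks assigned to lpar5a and lpar6a sat inside other genes. That of lpar5a, in the last intron of itm2cb, had 7.93 in DP-R1hi and 5.95 in DP-R1lo, and that of lpar6a, in intron 9 of 19 of ece2b, had 5.97 and 7.41. The gene ece2b encodes an endothelin-converting enzyme, so that position alone does not assign the lpar6a peak to either gene.

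In the apelin system, the ligand gene apln and the receptor gene aplnrb had peaks of opposite direction. Both peaks near apln, the ligand, were more open in DP-R1hi. The one 39864 bp upstream (chromosome 14, 33342556 to 33342988) had 5.11 in DP-R1hi and 0.71 in DP-R1lo, and the one 45187 bp downstream had 6.48 and 4.92. All 3 peaks near the receptor gene aplnrb, which acts in zebrafish heart progenitors, were more open in DP-R1lo. The peak over the single exon of aplnrb, centred 383 bp from its TSS (chromosome 10, 8670309 to 8671607), had the largest difference of the 80 peaks in favour of DP-R1lo. Its mean was -0.14 in DP-R1hi, the lowest value, and 7.76 in DP-R1lo, a difference of -7.90 over a peak of 1298 bp. The aplnrb peaks 9809 bp and 30964 bp upstream had -0.14 and 0.79 in DP-R1hi, against 4.84 and 6.40 in DP-R1lo. The second receptor gene, aplnra, differed from this pattern, with 1 peak more open in DP-R1hi between 2 that were more open in DP-R1lo. In aplnra the peak nearest the TSS, 4629 bp upstream, was open in both populations, at 6.48 in DP-R1hi and 7.65 in DP-R1lo. Farther upstream, at 36965 bp and 58086 bp, the means were 6.36 and 3.29 in DP-R1hi, against 4.44 and 6.12 in DP-R1lo.

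The endothelin receptor gene ednraa had 3 peaks, all more open in DP-R1lo and within 10 kb of its TSS. The 2 in intron 1 of 6, at 6996 bp and 3615 bp from the TSS, had -0.14 and 3.53 in DP-R1hi, against 6.0 and 6.43 in DP-R1lo. The peak 8949 bp upstream was less unequal, at 6.24 in DP-R1hi and 7.59 in DP-R1lo. The ligand gene edn1 had 1 peak, 106920 bp upstream and 1740 bp wide. It was the most open of the 80 peaks in DP-R1lo and had the smallest difference of those more open there, with 8.15 in DP-R1hi and 8.99 in DP-R1lo. The gene ramp2 encodes the partner that makes the calcitonin receptor-like receptor an adrenomedullin receptor, a pathway that vessels need. Both of its peaks were more open in DP-R1lo. The ramp2 promoter (chromosome 3, 36704435 to 36705019) had the lowest value of -0.14 in DP-R1hi and 5.84 in DP-R1lo. The peak 11346 bp from the ramp2 TSS was open in both, at 7.03 in DP-R1hi and 8.09 in DP-R1lo.

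The gene adora2b, which encodes an adenosine receptor linked to blood stem cell emergence in zebrafish, had the most peaks of the 43 genes. Its 6 peaks were intergenic, all upstream, and spread over 120699 bp of chromosome 5. From the TSS outwards, the peaks at 22997, 28039, 31807, 40920, 71211 and 143170 bp had DP-R1hi means of -0.14, 2.54, 5.88, 2.82, -0.14 and 7.76. In DP-R1lo they had 5.38, 7.14, 3.59, 5.96, 4.47 and 5.66. The direction thus switched 3 times along the locus, with peaks of opposite direction 3242 bp apart. The peak assigned to the second adenosine receptor gene, adora2aa, was in exon 12 of 16 of the neighbouring gene specc1la, with 6.40 in DP-R1hi and 4.75 in DP-R1lo. Near p2rx1, which encodes an ATP-gated channel of platelets, a peak 92769 bp upstream had 4.59 in DP-R1hi and the lowest value in DP-R1lo.

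The peaks of the 2 adhesion GPCR genes had opposite directions. The gene adgrg1 (Gpr56), a receptor of blood stem cells required for their formation in zebrafish embryos, was more open in DP-R1hi at its promoter (chromosome 7, 28410618 to 28411301), with 8.04 in DP-R1hi and 5.84 in DP-R1lo. A second adgrg1 peak, 15120 bp upstream, had 7.87 and 6.05, so that both sites were open in DP-R1lo too. The only peak assigned to adgrl4, an endothelial adhesion receptor, was more open in DP-R1lo, at 4.07 in DP-R1hi and 7.02 in DP-R1lo, but lay 293447 bp from the TSS.

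**Figure D3:**
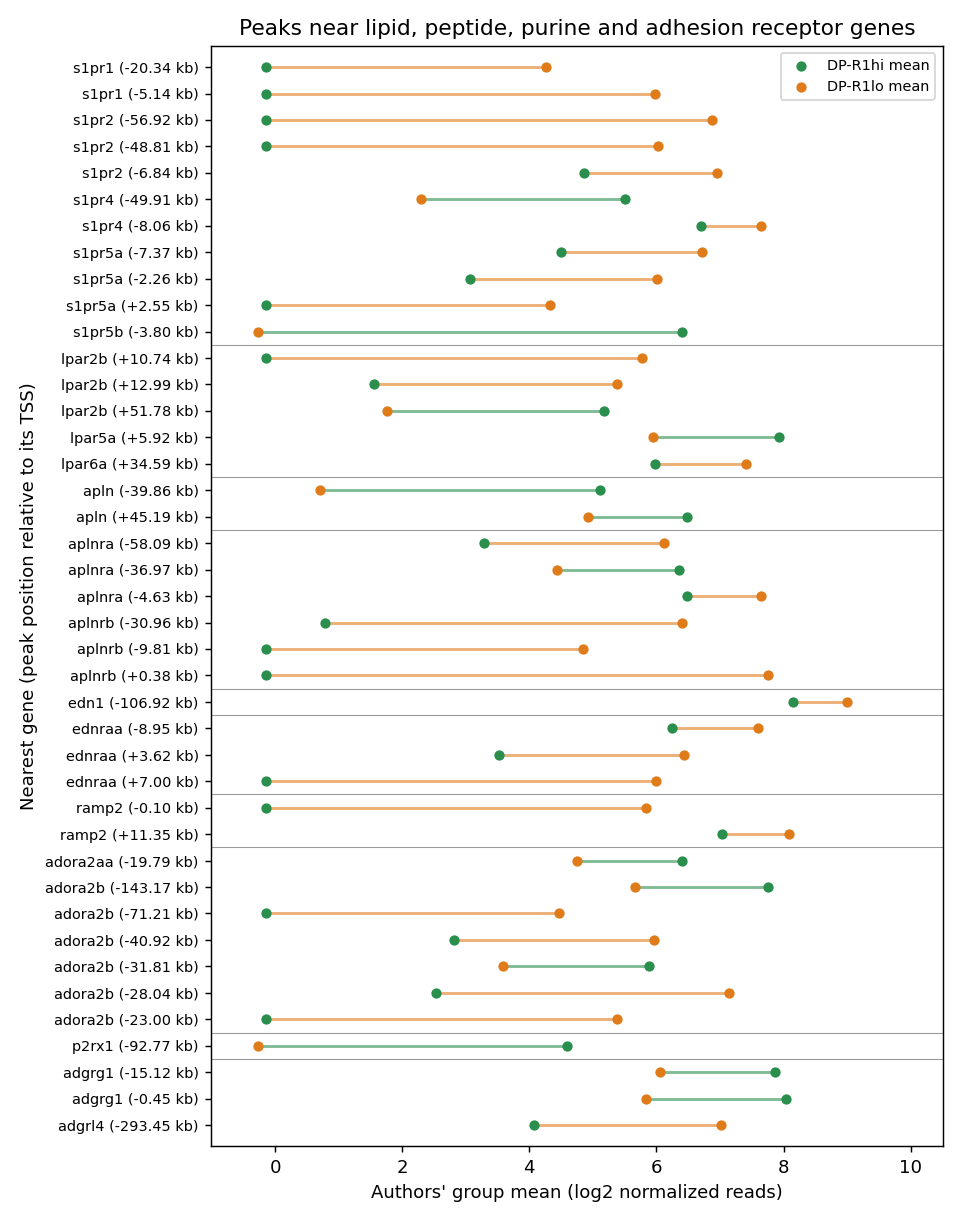
Each line is 1 peak near a lipid, peptide, purine or adhesion receptor gene or its ligand or partner, named by gene and by distance to the TSS in kb, with the authors' log2 mean in DP-R1hi (green) and in DP-R1lo (orange). Lines are green where DP-R1hi is higher. The aplnrb exon peak has -0.14 in DP-R1hi and 7.76 in DP-R1lo, and the s1pr5b peak 6.41 in DP-R1hi and -0.27 in DP-R1lo.

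Among the numbered gpr genes, gpr182 encodes an endothelial receptor that binds chemokines, and all 3 of its peaks were more open in DP-R1lo. They covered the gene from 5123 bp upstream through the promoter to its 3' end, within 8464 bp of chromosome 23. At the promoter (36530580 to 36531117) the means were 1.75 in DP-R1hi and 5.97 in DP-R1lo, a difference of -4.22. The upstream peak had 3.42 and 6.43, and the peak at the 3' end 0.40 and 4.92.

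Of the 22 peaks near the 15 numbered gpr genes, 11 were more open in DP-R1hi and 11 in DP-R1lo. The mammalian relative of gpr34b encodes a lysophospholipid receptor of the macrophage lineage, and a peak over its single exon (chromosome 9, 33607444 to 33607792) had 5.83 in DP-R1hi and the lowest value of -0.27 in DP-R1lo. Its relative gpr34l had 2 peaks in the same direction, with 5.04 and 6.04 in DP-R1hi, against 0.33 and 2.87 in DP-R1lo. The first lay 14596 bp from the gpr34l TSS, but the second lay 150604 bp from it. Near gpr183a, whose mammalian relative is an oxysterol receptor gene of lymphocytes, the peak had 5.39 in DP-R1hi and -0.27 in DP-R1lo. The peak near gpr132b, whose mammalian relative acts in macrophages and lymphocytes, was more open in DP-R1lo and had 1.75 in DP-R1hi and 6.57 in DP-R1lo. The genes gpr35.1 and gpr55a had 1 peak of each direction. For gpr35.1 these had 6.30 and 1.09 in DP-R1hi, against -0.27 and 4.77 in DP-R1lo, and for gpr55a 5.09 and -0.14, against 2.04 and 5.44. Of the leukocyte markers listed above, cebpa, cebpb, lcp1 and spi1b had peaks more open in DP-R1hi and no other, csf1ra and irf8 had 1 peak each more open in DP-R1lo, coro1a and spi1a had both, and ptprc, mpx, mpeg1.1, lyz and laptm5 had none. The part of such cells in the gpr peaks was not tested.

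The remaining gpr genes are less tied to vessels or blood. The exon of gpr160 held a peak 448 bp from the TSS (chromosome 2, 37312582 to 37313577) with 6.29 in DP-R1hi and 2.02 in DP-R1lo, and a second gpr160 peak had 7.54 and 5.43. Peaks near gpr137ba, gpr37b and gpr39, the last a zinc-sensing receptor gene, were also more open in DP-R1hi, with differences of 2.18, 4.10 and 2.11. Those near gpr146, gpr184 and gpr85 were more open in DP-R1lo, with differences of -2.06, -5.04 and -4.83. Both gpr22a peaks, in intron 6 of 21 of cog5, were also more open in DP-R1lo (-4.39 and -4.82).

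RGS genes made up 17 of the 80 peaks. The neighbouring genes rgs13 and rgs18 on chromosome 2 had peaks more open in DP-R1hi and no other. In mammals rgs18 is a regulator of platelets and other blood cells, and rgs13 one of B cells and mast cells. Their 4 peaks were the only 4 listed peaks within the 79243 bp from 6557365 to 6636608. The rgs13 promoter (6570187 to 6570689) had 6.18 in DP-R1hi and the lowest value of -0.27 in DP-R1lo, a difference of 6.45. The peak over exon 2 of rgs18, 545 bp from its TSS, had 5.05 in DP-R1hi and -0.27 in DP-R1lo. The other rgs13 peak had 6.65 and 3.69, and the other rgs18 peak, open in both populations, 7.96 and 6.86.

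The gene rgs3a, a regulator acting on Gq and Gi proteins, had 4 peaks. Its promoter (chromosome 5, 69383079 to 69383634) was the most open of the 80 peaks in DP-R1hi, with 8.28 in DP-R1hi and 7.38 in DP-R1lo, and its difference of 0.90 was the smallest of those more open in DP-R1hi. In intron 1 of rgs3a the means were 7.68 and 5.06, and 35034 bp downstream 4.96 and -0.27. The upstream rgs3a peak had the opposite direction, at 1.97 in DP-R1hi and 5.75 in DP-R1lo. Both peaks upstream of rgs2, a regulator of Gq signalling, were more open in DP-R1hi, with 4.55 and 5.49, against -0.27 and 1.76 in DP-R1lo. The 3 rgs19 peaks alternated in direction. From the TSS outwards they had -0.14, 7.51 and 1.56 in DP-R1hi, against 5.42, 5.63 and 5.00 in DP-R1lo.

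Other RGS peaks were more open in DP-R1lo. At the promoter of rgs5b, whose mammalian relative marks mural cells of vessels (chromosome 2, 7014000 to 7014356), the means were -0.14 in DP-R1hi and 4.86 in DP-R1lo. The rgs12b promoter had 3.35 in DP-R1hi and 5.70 in DP-R1lo. The peak upstream of rgs4 was open in both, at 7.11 in DP-R1hi and 7.99 in DP-R1lo. That assigned to rgs6 lay in intron 12 of 20 of sipa1l1, with 2.64 and 6.42.

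**Figure D4:**
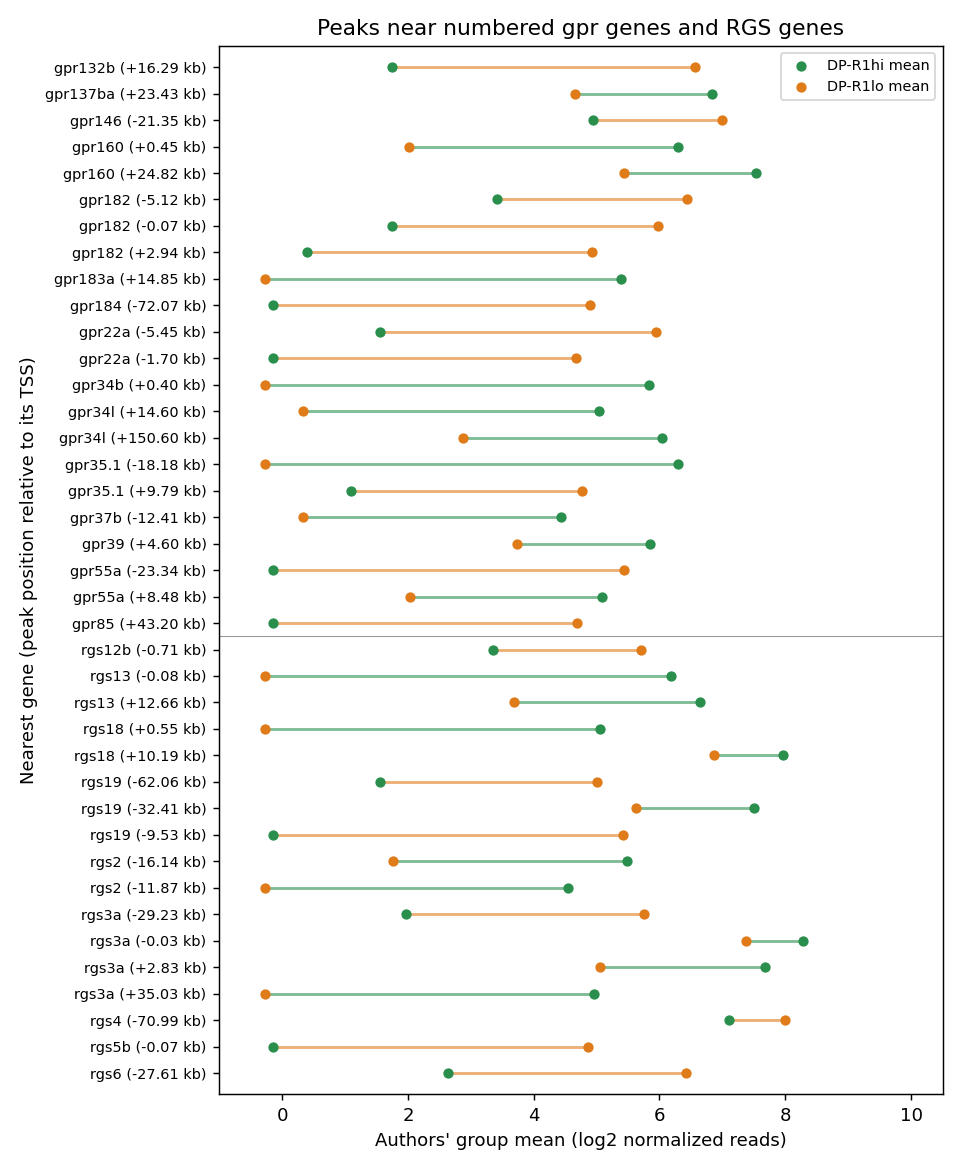
Each line is 1 peak near a numbered gpr gene (upper block) or an RGS gene (lower block), named by gene and by distance to the TSS in kb, with the authors' log2 mean in DP-R1hi (green) and in DP-R1lo (orange). The rgs13 and rgs18 peaks all have the higher value in DP-R1hi, and the 3 gpr182 peaks all have it in DP-R1lo.

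Within 1 kb of a TSS, 6 peaks were more open in DP-R1hi (adgrg1, rgs13, rgs3a, rgs18, gpr160 and gpr34b) and 5 in DP-R1lo (gpr182, ramp2, rgs12b, rgs5b and aplnrb). Over all listed peaks within 1 kb, 45.3% of 729 were more open in DP-R1hi. Within 10 kb the split was 11 against 22, or 33.3% more open in DP-R1hi, against 43.0% of 2400 listed peaks. Of the 22 peaks more open in DP-R1lo there, 6 were near S1P receptor genes, 6 near numbered gpr genes, 3 near aplnrb or aplnra, 3 near ednraa, 3 near RGS genes and 1 at ramp2.

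Genes with several peaks mostly kept 1 direction, as did those over both lists. Of 43 genes, 23 had 2 or more peaks, and 15 of these had all of them in 1 direction, 7 more open in DP-R1hi and 8 in DP-R1lo. The other 8 (adora2b, aplnra, gpr35.1, gpr55a, lpar2b, rgs19, rgs3a and s1pr4) had both, or 34.8% of the 23, against 45.1% of 2142 genes with 2 or more listed peaks. A gene had at most 6 peaks here and up to 13 over both lists, so these shares were not matched for peaks per gene. Of 15 pairs of neighbouring peaks of 1 gene less than 10 kb apart, 13 had the same direction (86.7%). The remaining 2 pairs were both at adora2b. Over both lists the share was 81.7% of 1418 pairs, but those pairs were not limited to peaks of 1 gene, so the sets are unlike.

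**Figure D5:**
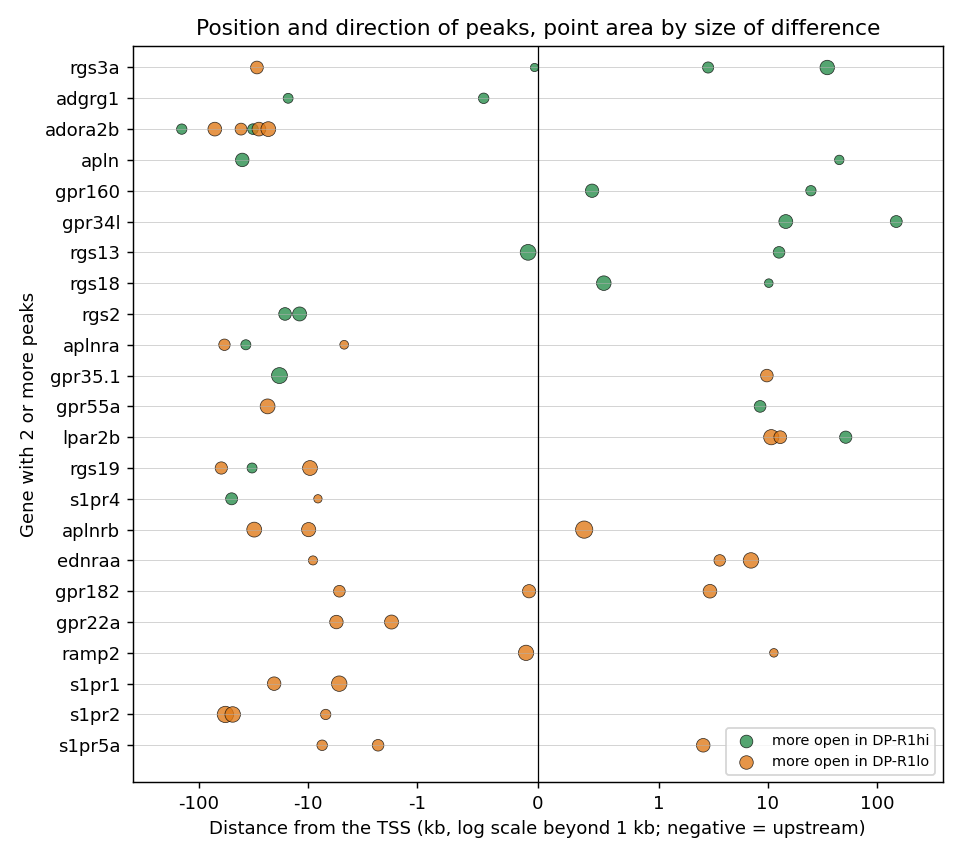
Position of each peak relative to the TSS of its nearest gene in kb (linear within 1 kb, log scale beyond) for the 23 genes with 2 or more peaks. Green points were more open in DP-R1hi and orange points in DP-R1lo, with the area growing with the absolute log2 difference. The 8 genes with orange points alone fill the bottom rows, 7 genes have green points alone, and adora2b, with 6 peaks, shows both colours upstream.

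Genes that make or pass on these signals were described from lists of their own. Among 13 genes that make, move or break down S1P and lysophosphatidic acid, spns2 alone had peaks under the symbols searched. Peaks listed under an older symbol would be missed. The S1P exporter gene spns2 had 3 more open in DP-R1hi and 2 more open in DP-R1lo, all within 50 kb of its TSS. The nearest, in an intron, had 6.65 in DP-R1hi and 4.49 in DP-R1lo. G protein subunits (8 of 21 genes with peaks) had 8 peaks in each direction. They included the promoter of gnai2a, an inhibitory alpha subunit, with 8.27 in DP-R1hi and 7.23 in DP-R1lo, and the promoter of gng12a, a gamma subunit, with 6.39 and 7.78. Arrestins and receptor kinases had 5 peaks more open in DP-R1hi, several of them in adrbk2, and 2 more open in DP-R1lo. Peptide ligands and their processing enzymes (apln and edn1 among them) had 3 and 3, and downstream enzymes and exchange factors 3 and 6. Those 6 were all near the exchange factor genes arhgef1a and arhgef1b, and within 50 kb the downstream counts were 2 and 2. Over all listed peaks 40.8% were more open in DP-R1hi, and none of these small counts was tested.

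Other GPCR genes of vessels and blood, with names outside the rule, had 10 peaks in each direction over 12 of 37 genes. Over all listed peaks, 40.8% were more open in DP-R1hi. Prostaglandin E2 receptor genes, singled out after their values were seen, had 6 peaks more open in DP-R1hi and 1 more open in DP-R1lo. The remaining genes of that list had more peaks in the DP-R1lo direction, and the split was not tested. The ptger2a promoter had 8.47 in DP-R1hi and 7.22 in DP-R1lo, the exon of ptger4b had 7.76 and 6.31, and the peak in ptger4a had 6.99 and 4.69. The ptger2a peak with the opposite direction had 0.49 in DP-R1hi and 5.39 in DP-R1lo. The chemokine receptor gene cxcr4a had 1 peak, at 0.40 in DP-R1hi and 5.73 in DP-R1lo. Its paralogue cxcr4b had 1 more open in DP-R1hi, 14458 bp upstream, and 2 more open in DP-R1lo, 104187 bp and 272785 bp upstream. The angiotensin receptor gene agtr2 had 1 peak more open in DP-R1hi, at 6.82 in DP-R1hi and 4.94 in DP-R1lo, and 2 more open in DP-R1lo. Those 2 were at the promoter, with 0.79 in DP-R1hi and 5.39 in DP-R1lo, and 6823 bp upstream, with 4.85 and 6.50.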

How the data were processed

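According to the methods and the submitters' processing notes, the authors trimmed reads with Trimmomatic 0.32, aligned them to Zv10 (GRCz10) with BWA 0.7.12, called peaks against genomic DNA, tested for differential peaks with DiffBind and edgeR, annotated them with HOMER 3.0 and kept absolute log2 fold changes above 0.7. The deposited lists hold log2 mean concentrations per group without a header. The columns were assigned from the values and the study's supplementary table. In all 9466 peaks the mean over both groups equalled the log2 of the averaged linear group means within 0.02. The deposited fold changes were not used. Starts are as deposited and may be 1 base too low.

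The genes described in full were those with a promoter peak or 2 or more peaks, the S1P, LPA, adhesion, apelin, endothelin, calcitonin, adenosine and P2 families, gpr182, and the 5 largest differences in each list. Single peaks of other gpr and RGS genes, and the examples from the pathway lists, were named after their values were seen. Members and gene lists were chosen with earlier results of these data known. Counts, medians and shares were computed with Python 3.11.15, numpy 2.4.6, pandas 2.3.3 and scipy 1.17.1 and tested on simulated data with known counts, and figures were drawn with matplotlib 3.10.9. Host gene names came from RefSeq accessions in a GRCz12tu table, in which 41 of the 43 genes matched. There rgs13 is named rgs13a and gpr137ba is named gpr137c. Promoter sequences were not used here. No test was made, since the lists hold no values per replicate and library depth is unknown.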

Additional observations from a re-analysis of the deposited data

How the results depend on the processing

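No paired analysis was possible because each population has 1 averaged value per peak, and for the same reason no replicate could be left out. Peak callers, normalization and the filter on low signal are the authors' and could not be varied. The share of peaks more open in DP-R1hi (42.5%) ranged from 33.3% within 10 kb of the TSS to 47.2% without peaks at a lowest value. These stayed inside the 95% exact binomial interval of the share, which covers counting only and treats peaks as independent. Filters shrink the counts by construction. Within 10 kb, 11 peaks were more open in DP-R1hi and 22 in DP-R1lo, with 1 peak per gene 18 and 25, with receptors alone 20 in DP-R1hi, and without peaks at a lowest value 28 in DP-R1lo. Leaving out the lowest values moved the median difference of peaks more open in DP-R1lo to -2.95, since those peaks hold the largest differences. With 1 peak per gene, that nearest the TSS, the median distance of peaks more open in DP-R1hi was 7201 bp. Matching by current gene symbols, chosen after seeing the data, gave 33 of 76 peaks. Merging peaks under 1 kb apart changed nothing. Within 50 kb, arrestins and receptor kinases had 3 peaks more open in DP-R1hi, peptide ligands 1 and downstream genes 2 more open in DP-R1lo. Counting peaks within 1 kb of the TSS gave 17.6% of the peaks more open in DP-R1hi. By promoter annotation the share of the same peaks was 8.82%, with a wide exact interval, from so few peaks, that held 17.6%. Within 1 kb lay 8.54% of all listed peaks more open in DP-R1hi. For DP-R1lo the shares within 1 kb were 10.9% here and 7.12% in the list. These differences from the lists were not tested. A count was taken as moved beyond a ratio of 1.5, and a share or median outside its 95% interval. By these limits 29 recomputed values for the GPCR and RGS peaks and 9 for the pathway lists did not move, whereas 8 and 3 did. Nearly all settings kept a subset of the same peaks, so these tallies are no independent check of the results.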
